A study of Homo sapiens with 6 samples.

Results

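Transcripts of 7 genes that encode peptide hormone or neuropeptide precursors were followed in human embryonic stem cells during induction of endoderm: GRP, NMU, GAL, PENK, VGF, SST and NTS. Members were taken as every probe of the array whose annotated gene symbol is one of these names. That gave 7 probes for 6 genes, out of 24526 probes for 16922 gene symbols. PENK had no probe under its symbol and is not analysed here. The genes were chosen with the difference between the treatments already known, so their differences are given as descriptions without a test.

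The cells compared were HES3, a human embryonic stem cell line, treated for 3 days with Activin A and BMP4 (3 arrays) or, by the titles and source names, with Activin A alone (3 arrays). Activin A is a ligand that signals through the receptors of Nodal, BMP4 is bone morphogenetic protein 4, and the labels give 50 ng/ml for each. Because the treatment field of all 6 samples mentions both factors, the absence of BMP4 in the Activin A group rests on the titles. All cells had been kept on gamma-irradiated human feeder cells with FGF2, passed through a cell strainer that per the labels typically removes 90% of feeders, and plated on fibronectin for 2 days before treatment. All samples come from 1 cell line, the design text calls the replicates biological, and some feeder cells may remain in every sample.

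Peptide precursors of this kind enter the secretory pathway as long inactive chains. In granules they are cut at pairs of basic residues, trimmed by carboxypeptidases and often amidated at the end of the chain, and the released peptides act on G protein-coupled receptors. GRP encodes gastrin-releasing peptide, the mammalian relative of the amphibian peptide bombesin. NMU encodes neuromedin U, which contracts smooth muscle and acts on feeding. GAL encodes galanin, a transcript long known to be abundant in undifferentiated human embryonic stem cells. VGF encodes a granule protein induced by nerve growth factor and cut into several peptides. SST encodes somatostatin, which inhibits hormone release, and NTS encodes neurotensin.

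The promoters of the 3 members whose arrays separated by treatment are shown because these genes share a contrast but not a direction. Each run is the 250 bases before the annotated start, read 5′ to 3′ on the gene's strand from RefSeq promoters of build GRCh38.p14. The positions are chr18:59219908-59220157 (plus strand) for GRP, chr4:55636794-55637043 (minus strand) for NMU and chr7:101165570-101165819 (minus strand) for VGF. Capitals mark every match to the motifs searched.
GRP: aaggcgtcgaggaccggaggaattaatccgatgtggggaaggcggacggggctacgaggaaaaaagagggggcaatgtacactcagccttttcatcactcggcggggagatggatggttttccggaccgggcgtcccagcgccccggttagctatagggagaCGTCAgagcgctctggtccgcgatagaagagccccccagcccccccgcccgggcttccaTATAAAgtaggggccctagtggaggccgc
NMU: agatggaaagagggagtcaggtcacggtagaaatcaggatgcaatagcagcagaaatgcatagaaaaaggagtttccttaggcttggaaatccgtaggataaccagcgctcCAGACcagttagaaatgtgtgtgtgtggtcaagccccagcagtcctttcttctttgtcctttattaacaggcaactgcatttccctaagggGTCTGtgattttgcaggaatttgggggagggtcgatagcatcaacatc
VGF: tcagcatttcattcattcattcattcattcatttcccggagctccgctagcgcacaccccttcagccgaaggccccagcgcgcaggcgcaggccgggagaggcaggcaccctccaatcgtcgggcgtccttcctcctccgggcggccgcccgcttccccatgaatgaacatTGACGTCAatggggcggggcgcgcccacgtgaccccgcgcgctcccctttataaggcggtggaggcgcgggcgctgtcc

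The motifs were the cyclic AMP response element TGACGTCA, its half-site TGACG, the SMAD binding element CAGAC, the GC-rich SMAD motif GGCGCC, the T-box motif TCACACC, all on both strands, and TATAAA on the gene's strand. VGF held the full cyclic AMP response element 79 bases before its start, a motif found in 1.65% of 35116 promoters of the same length, and this match includes both half-site matches. GRP held a half-site 88 bases before its start (21.2% of promoters) and TATAAA 29 bases before it (6.80% of promoters). NMU held 2 SMAD binding elements, 139 and 48 bases before the start, and 38.0% of promoters held at least 1. Of the members with no level above background, SST held the full cyclic AMP response element 47 bases before its start, a GC-rich SMAD motif 61 bases before it (16.4% of promoters) and TATAAA 215 bases before it. NTS held a SMAD binding element and half-sites 234 and 192 bases before its start. The T-box motif was found in none of these 5 promoters (2.76% of all). Promoters matched for 5 members, GRP, NMU, VGF, SST and NTS.

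GRP was read by 2 probes, assigned to different RefSeq transcripts of the gene. Probe ILMN_2413323 gave deposited signals of 1077.9, 1572.8 and 1448.5 with Activin A + BMP4, against 37.5, 4.4 and 24.6 with Activin A. Probe ILMN_1777199 gave 229.6, 364.0 and 359.9 with Activin A + BMP4, against 18.2, 16.9 and 6.4 with Activin A. A probe was taken as above background where its detection p-value was under 0.01. Both probes were above background on all 3 arrays with BMP4 and on 0 of the 3 with Activin A, where the detection p-value of ILMN_2413323 was 0.0241, 0.323 and 0.0707.

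On the normalized log2 scale ILMN_2413323 averaged 10.48 ± 0.33 with Activin A + BMP4 and 5.31 ± 0.40 with Activin A (SD, n = 3 each). Because the Activin A level is at background, the fold is a bound, taken against the higher of the probe's own value and the lowest level of any probe above background on each array. GRP was at least 21.9-fold higher with BMP4 by this probe and at least 5.11-fold higher by ILMN_1777199. With another background correction (normexp, offset 50) the bounds were 11.5-fold and 3.06-fold. The probes varied together among the BMP4 arrays. Replicate 1 deviated from the group mean by -0.33 and -0.36 on the log2 scale, and replicate 2 by 0.33 and 0.32.

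NMU was above background on all 6 arrays. Its signal was 2771.0, 2742.9 and 2828.9 with Activin A + BMP4, against 315.3, 218.4 and 309.1 with Activin A. The groups did not overlap, and the BMP4 arrays lay closer together than the Activin A arrays. The normalized log2 level was 11.52 ± 0.06 with Activin A + BMP4 and 8.19 ± 0.20 with Activin A (SD, n = 3 each), a difference of 3.34, or 10.1-fold.

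VGF went the other way. Its signal was 173.5, 174.3 and 220.1 with Activin A + BMP4, against 938.8, 903.1 and 1136.7 with Activin A, all above background. The lowest Activin A array stood far above the highest BMP4 array. Normalized log2 levels were 7.68 ± 0.04 with Activin A + BMP4 and 9.94 ± 0.22 with Activin A (SD, n = 3 each), a difference of -2.26, so that VGF was 4.78-fold lower with BMP4.

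GAL was above background on every array and its groups overlapped. The signal was 12070.1, 10000.5 and 10523.9 with Activin A + BMP4, against 12962.5, 11233.0 and 13168.3 with Activin A. The highest BMP4 array, replicate 1, was above the lowest Activin A array, replicate 2. The normalized log2 level was 13.46 ± 0.13 with Activin A + BMP4 and 13.58 ± 0.07 with Activin A (SD, n = 3 each), and the difference of -0.11 was smaller than the larger of these spreads. Although GAL stands beside GRP and NMU in the choice of genes, these arrays do not separate its treatments.

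SST and NTS were not above background on any array, so no fold is given. The SST signal was -9.4, -10.2 and -22.2 with Activin A + BMP4 and -5.4, -10.4 and -5.2 with Activin A, where values below 0 come from the background subtraction. The NTS signal was -8.0, -11.1 and -5.7 with Activin A + BMP4 and -6.3, -5.7 and 4.8 with Activin A, and its lowest detection p-value was 0.334. A level of these transcripts under the background of the array would not be seen.

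**Figure D1:**
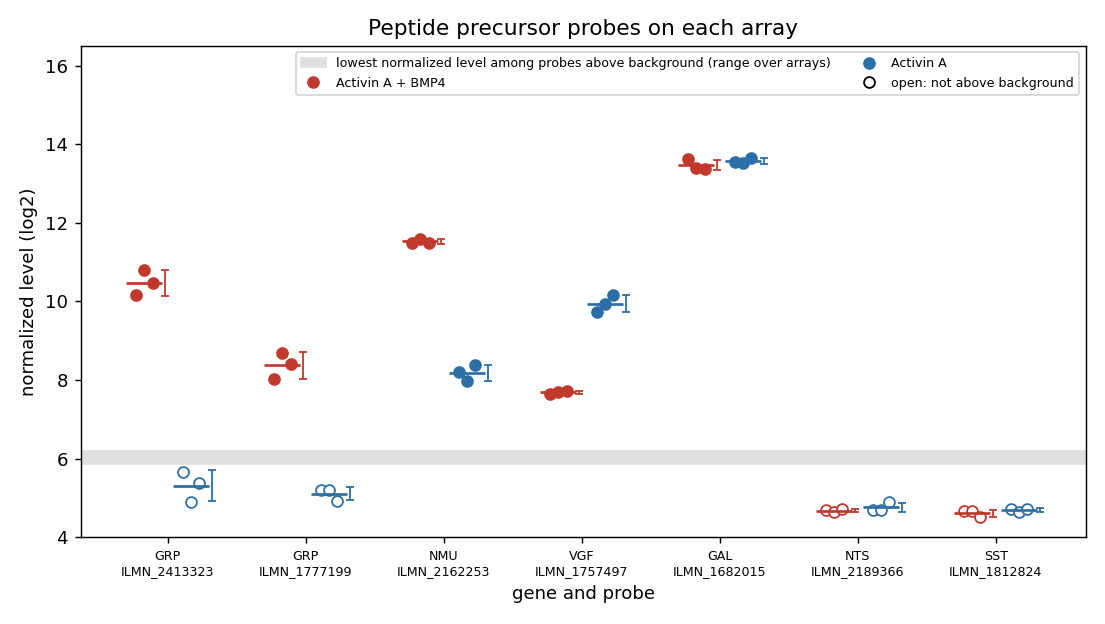
Normalized log2 level (vertical axis) of each member probe on each array, Activin A + BMP4 to the left of Activin A, with the group mean as a line and the SD as a bar (n = 3). Open points are not above background and the grey band is the range over arrays of the lowest level among probes above background. GRP and NMU stand higher and VGF lower with BMP4, GAL overlaps, and NTS and SST lie under the band; heights of different probes are not comparable.

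Of the 7 member probes 5 passed the filter on dim probes, which asked for a level above background on at least 3 of the 6 arrays. Both GRP probes passed through the BMP4 arrays alone. In the limma fit across all 10116 tested probes, 4 of the 5 passed the adjusted threshold of 0.05, against 35.4% of all tested probes. The 3 higher probes stand against 17.5% of tested probes called higher, and the 1 lower probe against 17.9% called lower. The groups did not overlap for 4 of the 5, against 49.4% of tested probes. Since the genes were chosen on this contrast, nothing is read from these counts.

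**Figure D2:**
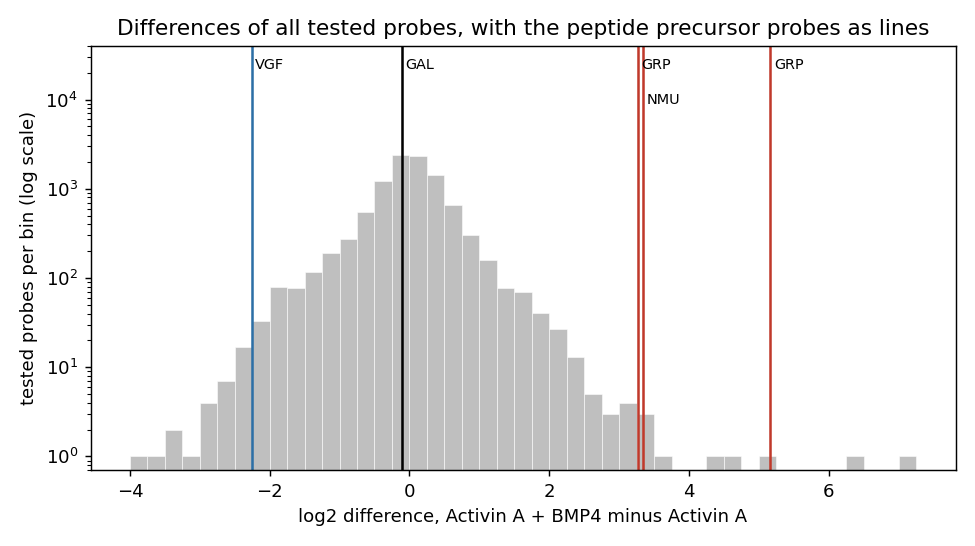
Number of tested probes (vertical axis, log scale) by log2 difference, Activin A + BMP4 minus Activin A, in bins of 0.25, with the 5 tested member probes as vertical lines. The GRP probes, at 5.16 and 3.27 against an Activin A level that is background, and NMU, at 3.34, lie beyond the 99th percentile of 1.77, VGF, at -2.26, lies below the 1st percentile of -1.88, and GAL lies near the median of 0.01.

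Chip was read from the number that begins each array's name, and the grouping rests on that reading. By it every chip held arrays of 1 treatment, so treatment and chip cannot be told apart, but the BMP4 arrays came from a pair of chips. Against the Activin A mean, which for GRP is background, ILMN_2413323 differed by 5.17 for the 2 BMP4 arrays on the first chip and by 5.16 for the array on the second. The same pair of values was 3.25 and 3.31 for ILMN_1777199, 3.35 and 3.31 for NMU, -2.27 and -2.23 for VGF and -0.07 and -0.20 for GAL.

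Markers of the cells present moved with the treatments. Over all 8186 tested genes 17.6% were called higher and 18.1% lower. Of 13 tested definitive endoderm markers, 11 were higher with BMP4 and 0 lower, with summed normalized levels of 25022 to 26557 with Activin A + BMP4 and 9071 to 9581 with Activin A. With detection required on all 6 arrays, 10 endoderm markers were higher. The largest endoderm differences were in SOX17 (7.23-fold), FRZB (5.02-fold) and MIXL1 (4.01-fold). FOXA2 (log2 difference 0.13, limma adjusted p = 0.386) and HHEX (0.30, limma adjusted p = 0.194) did not pass the threshold. FOXA1 was above background on 2 Activin A arrays and 0 BMP4 arrays, and GATA6 on 1 BMP4 array and 0 Activin A arrays, too few to be tested. Of 10 tested pluripotency markers, LIN28A was higher (1.45-fold) and 6 were lower, among them SOX2 (9.65-fold), TERF1 (3.67-fold), NANOG (2.11-fold) and POU5F1 (1.93-fold), each still above background on every array. Of 21 tested fibroblast markers, 3 were higher and 17 lower, with sums of 46215 to 49551 with Activin A + BMP4 and 79571 to 93621 with Activin A. The lower ones included LOX (4.58-fold), THY1 (4.48-fold) and PRRX1 (4.46-fold), and the higher ones were COL5A2 (2.27-fold), FBLN1 (1.37-fold) and COL5A1 (1.29-fold), though FBLN1 lost its call with median scaling (limma adjusted p = 0.0507) and with the authors' values (0.0904). COL5A1 lost its call under both of these and with no filter on dim probes, and without Activin A replicate 1 (limma adjusted p = 0.114), Activin A replicate 3 (0.0860), BMP4 replicate 2 (0.0885) or BMP4 replicate 3 (0.0835). The fibroblast markers POSTN, FBN1 and DPT were not above background on any array. In such bulk samples fewer cells of a type and less RNA per cell cannot be told apart, and the part of the feeder cells in the lower VGF was not tested.

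Neuroendocrine and neuronal cells are the usual sources of these peptides. Of 18 markers with a probe, 8 were not above background on any array: CHGB, SYP, INSM1, NEUROG3, ELAVL4, NEFL, MAPT and NKX2-2. Over all 8186 tested genes 17.6% were called higher and 18.1% lower, with a median log2 difference of 0.00. Of the 8 markers tested, 1 was higher and 4 lower (median log2 difference -0.46). The summed levels, 4725 to 5209 with Activin A + BMP4 and 4644 to 4899 with Activin A, are mostly those of the bright probes of TUBB3 and UCHL1. The differences of STMN2, DCX and UCHL1, which did not pass the threshold, were -0.41, -0.18 and 0.01. CHGA, which encodes the granule protein chromogranin A, was 2.36-fold lower (limma adjusted p = 1.48e-04). SNAP25, of the vesicle fusion machinery and above background on 2 of the 3 BMP4 arrays, was 1.62-fold lower (limma adjusted p = 0.00539). GAP43, a growth cone protein, did not exceed background on any BMP4 array, and its fall was at least 1.38-fold (1.19-fold under normexp). TUBB3, a tubulin of neurons, was 1.29-fold higher (limma adjusted p = 0.0194), but its call was lost with median scaling (limma adjusted p = 0.201), with the authors' values (0.199), and without Activin A replicate 2 (0.0613), BMP4 replicate 1 (0.0580) or BMP4 replicate 2 (0.0708).

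Receptors for the members' peptides were mostly under background. Of 18 receptor genes with a probe, 14 were not above background on any array, among them NMUR1 and NMUR2, the receptors of neuromedin U, the opioid receptors OPRM1, OPRD1 and OPRK1, and the neurotensin receptors NTSR1 and NTSR2. GALR1 was above background on 1 Activin A array and GALR2 on 1 BMP4 array, too few to be tested. GRPR, the receptor of gastrin-releasing peptide, was above background on all 6 arrays. Its signal was 832.0, 960.7 and 905.6 with Activin A + BMP4, against 1075.5, 1043.0 and 892.2 with Activin A. The groups overlapped and the log2 difference was -0.09 ± 0.13 SE (limma adjusted p = 0.622), and the difference was 0.0025 when Activin A replicate 2 was left out. SSTR2, a somatostatin receptor, was the other tested member, at 1.38-fold higher (limma adjusted p = 0.0273), a call lost under 7 of the alternatives (limma adjusted p of 0.0539 to 0.0818 there).

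Genes that process and store peptides moved in both directions. The threshold was passed upward by 3 and downward by 5 of 12 tested genes (median log2 difference -0.41). Over all 8186 tested genes, 35.8% were called, 17.6% higher and 18.1% lower. CPE, the carboxypeptidase that trims basic residues from cut precursors, was 2.96-fold higher (log2 difference 1.56 ± 0.18 SE, limma adjusted p = 2.49e-04). Its signal was 643.1, 822.1 and 1162.1 with Activin A + BMP4, against 319.8, 239.6 and 307.0 with Activin A, with no overlap. CPZ, another carboxypeptidase, was 1.86-fold higher (limma adjusted p = 0.00230). FURIN, a protease that cuts many precursors in the Golgi, was 1.63-fold higher (limma adjusted p = 0.0240). The FURIN call was lost without Activin A replicate 1 (limma adjusted p = 0.0550), Activin A replicate 3 (0.0557), BMP4 replicate 2 (0.0586) or BMP4 replicate 3 (0.0769), and with no filter on dim probes (0.0510).

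SCG5, SCG2, CHGA and SCG3, proteins of the granules, were lower with BMP4. SCG5, the chaperone of prohormone convertase PCSK2, was 3.21-fold lower (log2 difference -1.68 ± 0.12 SE, limma adjusted p = 2.51e-05). SCG2, secretogranin II, had signals of 32.3, 24.8 and 29.8 with Activin A + BMP4, against 162.5, 95.3 and 107.2 with Activin A. SCG2 did not exceed background on any BMP4 array, and its fall was at least 2.03-fold, or 1.52-fold under normexp. CHGA is given above, and SCG3 was 1.62-fold lower (limma adjusted p = 0.00330). PAM, the enzyme that amidates the ends of peptides such as gastrin-releasing peptide and neuromedin U, was 1.65-fold lower (limma adjusted p = 5.29e-04). These genes moved on arrays where 17 of 21 fibroblast markers were lower, and the part of the feeder cells was not tested.

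Among other peptide and hormone precursors 15 of 60 with a probe were tested and 42 were not above background on any array. Upward calls were made for 5 of the 15 and downward calls for 7 (median log2 difference -0.36). Over all tested genes 17.6% were called higher and 18.1% lower. Of the 5, NPPA, TRH, NPB and POMC passed the filter on dim probes through the BMP4 arrays alone. With detection required on all 6 arrays, 1 upward and 5 downward calls were left. NPPA, the atrial natriuretic peptide gene, had signals of 239.3, 205.7 and 284.0 with Activin A + BMP4, against 33.9, 21.6 and 27.5 with Activin A. It was not above background with Activin A and at least 3.97-fold higher, or 2.49-fold under normexp. NPPB, the B-type natriuretic peptide gene, was above background throughout and 2.11-fold higher (limma adjusted p = 1.14e-04). TRH, the thyrotropin-releasing hormone gene, was at least 2.05-fold higher, or 1.53-fold under normexp. The other precursors that rose were NPB and POMC, at least 1.15-fold and at least 1.26-fold, which like TRH were not above background with Activin A.

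Precursors that fell included KISS1, the kisspeptin gene, 3.22-fold lower (log2 difference -1.69 ± 0.26 SE, limma adjusted p = 0.00146). Its signal was 71.5, 34.6 and 113.3 with Activin A + BMP4, against 226.3, 264.7 and 258.7 with Activin A. KISS1 was above background on 2 of the 3 BMP4 arrays, and its log2 difference was -1.15 under normexp. STC2, a stanniocalcin, was 2.55-fold lower (limma adjusted p = 8.67e-05) and ADM, the adrenomedullin gene, 2.09-fold lower (limma adjusted p = 1.47e-04). EDN1, STC1, PROK2 and NUCB2 made up the 7. NMB, which encodes neuromedin B and is the closest relative of GRP in the list, differed by -0.37 ± 0.17 SE (limma adjusted p = 0.115). Of 6 tested peptidases that break down peptides, 2 were lower and 0 higher (median log2 difference -0.18). Over all tested genes 18.1% were called lower and 17.6% higher. ANPEP, an aminopeptidase of the cell surface, was 5.07-fold lower (limma adjusted p = 1.27e-05). DPP4, which removes dipeptides from the start of peptides and was above background on 1 BMP4 array, had signals of 46.4, 35.9 and 49.6 with Activin A + BMP4, against 67.5, 62.0 and 94.9 with Activin A. No fold is given because its mean with BMP4 is near background; it was called lower (limma adjusted p = 0.0186), a call lost without BMP4 replicate 2 (limma adjusted p = 0.0642) or BMP4 replicate 3 (0.0514). No peptidase passed the threshold upward, and THOP1, the peptidase with the largest positive difference, was at 0.11 (limma adjusted p = 0.473).

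**Figure D3:**
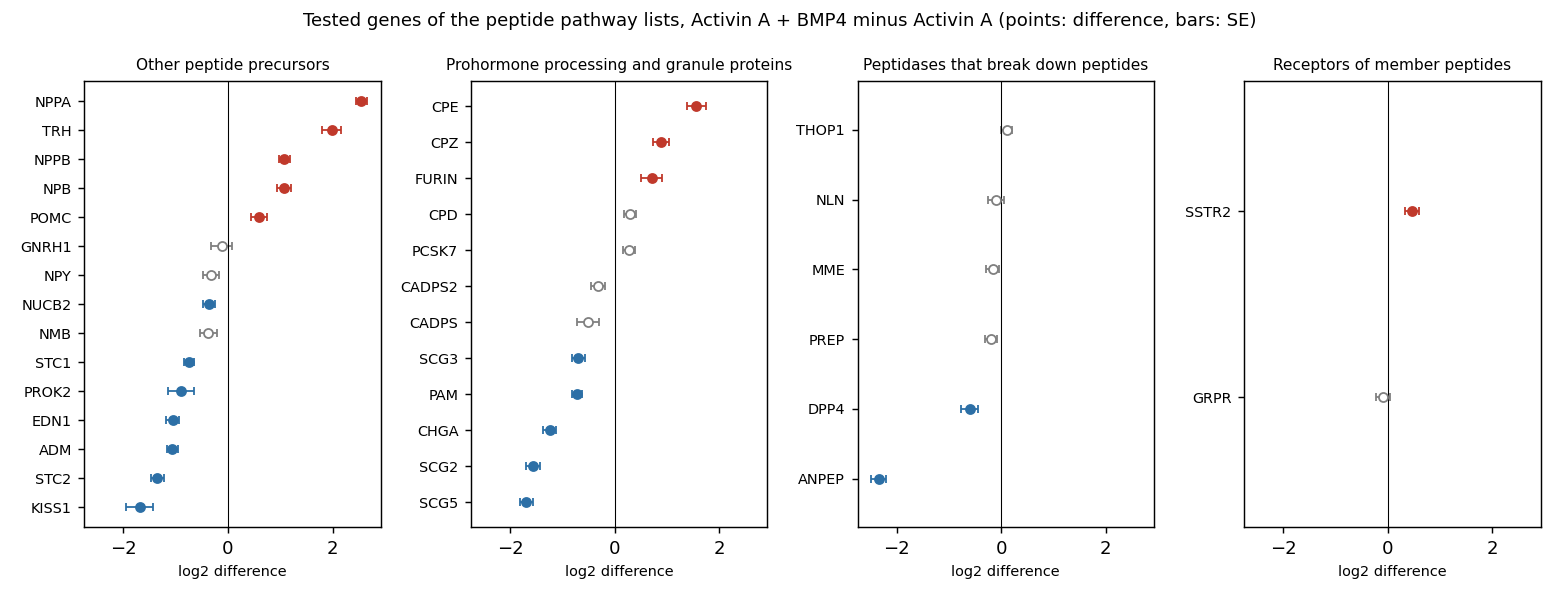
Log2 difference (horizontal axis, Activin A + BMP4 minus Activin A, with SE bars from limma, n = 3 each) of every tested gene in the lists of other precursors, processing and granule proteins, peptidases and receptors. Filled points passed the adjusted threshold. CPE, NPPA and TRH lie to the right and SCG5, SCG2, KISS1 and ANPEP to the left, and GRPR overlaps 0. The points of NPPA, TRH, NPB and POMC are set against an Activin A level that is background. The SCG2 point is set against a BMP4 level that is background.

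Genes with the most similar profiles were found by the root mean square difference of mean-centred log2 levels over the 6 arrays. For NMU the nearest was MFAP4, a microfibril-associated protein gene, at 0.10 (Pearson r = 0.998, n = 6 arrays), followed by PRSS35 at 0.20 (r = 0.997) and MIR9-1HG at 0.23 (r = 0.993). For GRP, read by ILMN_2413323, the nearest was APLNR, the apelin receptor gene, at 0.41 (r = 0.995), then PEG10 at 0.86 (r = 0.984) and MFAP4 at 0.92 (r = 0.997). APLNR, PEG10 and MIR9-1HG, like GRP, were above background on no Activin A array, so their levels there are background. For GAL the nearest were INTS12 at 0.03 (r = 0.960), BCKDHA at 0.03 (r = 0.944) and INTS6 at 0.04 (r = 0.939), with log2 differences between treatments of -0.12, -0.13 and -0.07. All points share the same 6 arrays, the step between treatments sets most of each r for GRP and NMU, and the genes were picked from 8186 for likeness, so the values are descriptions.

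**Figure D4:**
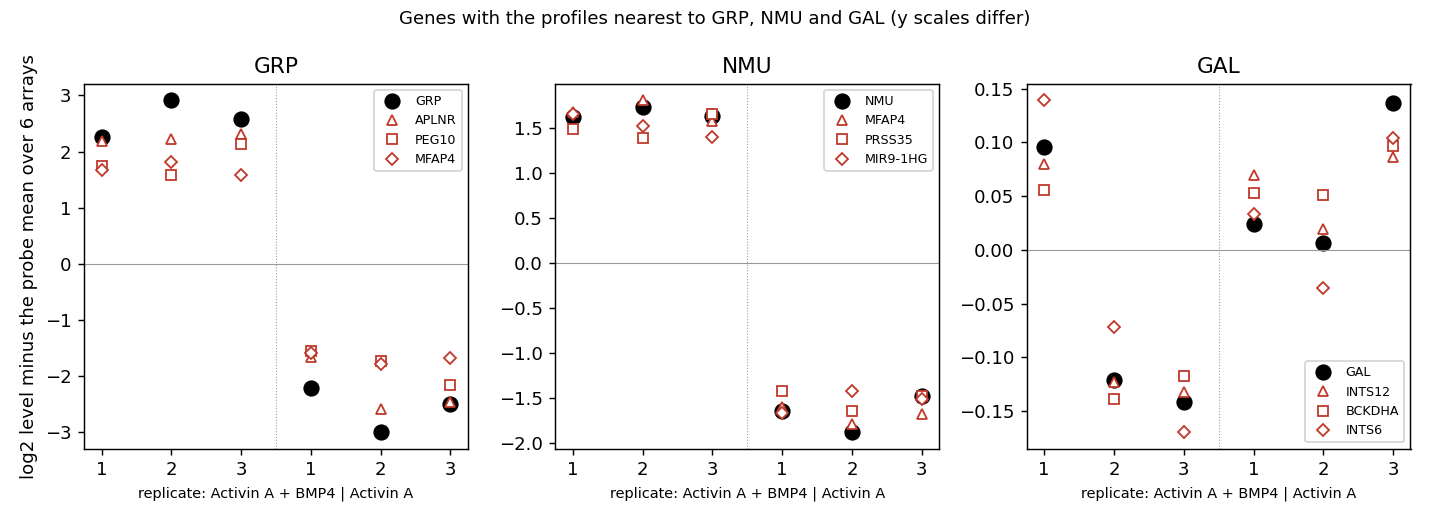
Log2 level minus the probe's mean over the 6 arrays (vertical axis, different scale in each panel) for GRP, NMU and GAL (filled circles) and the 3 genes with the nearest profile (open symbols), with Activin A + BMP4 replicates to the left of the dotted line and Activin A replicates to the right. MFAP4 follows NMU to a root mean square difference of 0.10, and GAL and its neighbours stay within 0.17 of their means.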

How the data were processed

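The intensity values deposited by the authors are probe signals of Illumina bead arrays; per the file headers they are non-normalized. Background had been subtracted, as 22.2% to 24.6% of signals per array lay below 0. The detection column, a score that per the file headers is a detection p-value, rose with the signal, so its complement to 1 was used as the p-value. The authors' deposited log2 values equalled the log2 signal plus a probe and an array constant over 6507 bright probes, with array medians of -0.147 to 0.147, and the baseline of each probe is unknown. Scanner software: not given in the sources used here. For testing, signals were normalized with neqc (offset 16, quantile) in limma 3.58.1 under R 4.3.3, and 10116 probes with a detection p under 0.01 on at least 3 of the 6 arrays were tested.

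Treatments were compared with lmFit and eBayes, two-sided, with Benjamini-Hochberg adjustment over all tested probes. Each difference subtracts the Activin A mean from the mean with BMP4. A gene was represented by its tested probe with the highest mean. Of the probes, 21834 had exactly 1 symbol in the annotation, 2692 lacked one and 0 had more. The members and lists were chosen with earlier results of these data known. From each list the text names up to 3 genes higher and 3 lower past the threshold with the largest differences, detected receptors, and the 3 nearest profiles of GRP, NMU and GAL. NMB, EDN1, STC1, PROK2, NUCB2, NPB, POMC, SCG3, PAM, THOP1, POU5F1, STMN2, DCX, UCHL1 and the marker genes named as not above background were named after their values were seen. So were FOXA2, HHEX, FOXA1 and GATA6. Probes detected per array numbered 9348 to 10460, and the number of arrays limits the precision. Arrays of a treatment correlated at 0.985 or more, those of different treatments at 0.926 to 0.945. No pairing of arrays by replicate number was seen, and 0 columns were left unused. Tried as alternatives were other background corrections, scalings, filters and blocks, the authors' values, and leaving out each array.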

Additional observations from a re-analysis of the deposited data

How the results depend on the processing

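Of the 17 alternatives, normexp changes method and offset together and the authors' values replace the whole normalization. NMU, VGF and GAL were compared under 16, leaving out the mean of a gene's probes. The filters and the replicate block cannot change a member's log2 difference. The log2 difference was 3.08 to 3.41 for NMU, -2.38 to -1.95 for VGF and -0.20 to -0.06 for GAL. Both GRP probes stayed higher with BMP4 wherever they were tested. The GRP probes were not tested where detection on all 6 arrays was required. The GRP bounds of 21.9-fold and 5.11-fold became 14.7-fold and 3.70-fold with an offset of 50 and 11.5-fold and 3.06-fold under normexp. Under median scaling, as under the authors' values, higher receptor genes numbered 0, higher fibroblast markers 1 and higher neuroendocrine markers 0. With detection on all 6 arrays 1 peptidase was lower, 1 other precursor higher and 2 neuroendocrine markers lower, fewer genes being tested. With no filter 1 endoderm marker was lower. The other causes were not tested. Leaving out 1 array gave 0 to 1 receptors higher, 1 to 2 peptidases lower, 0 to 1 neuroendocrine markers higher, and 1384 to 1572 probes higher and 1472 to 1636 lower overall. The log2 difference of GRPR ran from -0.18 to 0.0025, turning its sign without Activin A replicate 2. Of 670 comparisons of the genes named by rule, 28 lost the call, in SSTR2, FURIN, TUBB3, DPP4, FBLN1 and COL5A1.

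Same-numbered arrays deviated together at correlations of 0.03, -0.03 and -0.05. For 2 of the 6 arrays the best match bore the same number, so no pairing was seen. With 3 arrays per group this check cannot tell whether same-numbered cultures were handled in parallel. With the replicate block 1681 probes were higher and 1652 lower, against 1775 and 1806 without it. The replicate numbers are the same in both treatments, so the block cannot change a difference of means, only its error. Treating chip as a random effect (consensus correlation 0.01) gave 1728 and 1774. No chip held both treatments, so this fit cannot separate chip from treatment. Signal over background limits GRP with Activin A, SST, NTS and most receptors.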
